A study of Mus musculus with 8 samples.

Results

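The genes described here are 6 transcription factors that drive epithelial-to-mesenchymal transition (EMT), Zeb1, Zeb2, Snai1, Snai2, Twist1 and Twist2, and 4 mesenchymal markers, Vim, Cdh2, Fn1 and S100a4. They were chosen by name, 10 of the 54532 genes in the count tables, and found by their Ensembl identifiers. They were measured by poly(A) RNA sequencing in 4T1, a metastatic BALB/c mouse mammary tumor line used as a model of triple-negative breast cancer. The cells stably carried either an shRNA against MCT-1 (shMCT-1; gene Mcts1, a factor of translation reinitiation) or a scramble shRNA, and were kept in puromycin. Each background was given an antibody against the mouse IL-6 receptor (anti-IL-6R) at 100 ng/ml or IgG for 48 h. Each of the 4 groups (shMCT-1 + anti-IL-6R, shMCT-1 + IgG, scramble + anti-IL-6R, scramble + IgG) has 2 libraries, 8 in all, which the series calls independent biological replicates. A single shRNA sequence was used against MCT-1 in 4T1 cells, so an effect of MCT-1 loss and any other effect of that shRNA or of the selected line cannot be told apart. The labels name no batch.

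In EMT, epithelial cells lose their junctions and gain motility and a fibroblast-like cytoskeleton and matrix. The ZEB and SNAI zinc finger proteins bind E-box sequences and repress epithelial genes such as Cdh1 (E-cadherin) and Epcam, and the TWIST basic helix-loop-helix proteins act beside them. Vimentin (Vim) is the intermediate filament of mesenchymal cells, N-cadherin (Cdh2) their classical cadherin, fibronectin (Fn1) a matrix glycoprotein and S100a4 a calcium-binding protein linked to motility, while IL-6 signaling through STAT3 is a known inducer of the program in breast cancer cells.

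The libraries held 19839299 to 33063570 expected counts, and every shMCT-1 library was smaller than every scramble library. Levels are TMM-adjusted CPM, the counts of a gene divided by the effective library size, and differences as log2 fold changes of edgeR's quasi-likelihood test with Benjamini-Hochberg adjustment over the 12704 genes that exceeded 1 CPM in 2 or more libraries. DEGs are genes whose adjusted p was under 0.05, and "called" is used in this sense. Mcts1, the target of the shRNA, stood at 15.0 and 11.8 CPM in scramble + IgG and 12.6 and 13.2 CPM in scramble + anti-IL-6R, against 6.42 and 6.29 CPM in shMCT-1 + IgG and 6.88 and 4.99 CPM in shMCT-1 + anti-IL-6R. It was 2.11-fold lower in shMCT-1 with IgG (log2 fold change -1.08 ± 0.17, SE, adjusted p = 0.000676) and 2.18-fold lower with anti-IL-6R (-1.13 ± 0.17, adjusted p = 0.000557). The 5 epithelial markers checked (Krt8, Krt18, Krt14, Epcam, Cdh1) were all expressed. They summed to 2032 to 2141 CPM in scramble and 2617 to 2854 CPM in shMCT-1, most of it Krt8 and Krt18. Of 8 fibroblast markers 2 passed the filter. The sum of all 8 lay at 15.01 to 17.01 CPM in scramble and 12.98 to 16.62 CPM in shMCT-1, almost all of it Pdgfra, with Lum at 0. The sum of 6 immune markers was 3.09 to 3.90 CPM in scramble and 6.20 to 8.12 CPM in shMCT-1, mainly Cd68, with Adgre1 and Cd3e at 0. The sum of 5 endothelial markers was 0.126 to 0.332 CPM in scramble and 0.776 to 1.99 CPM in shMCT-1.

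The detected genes among the 10 did not differ in a single direction between shMCT-1 and scramble. Across both treatments Zeb2 and Fn1 were lower in shMCT-1 and Twist1 and Vim were higher, while Snai1 and S100a4 were not called. Of all tested genes, 35% were called higher and 34% lower in that comparison, so the mix of directions is not particular to these genes. After a correction for transcript length and GC content, described further on, Twist1 was no longer called, Zeb2 and Fn1 differed less and were no longer called within anti-IL-6R, and Snai1 and S100a4 were called lower. Twist2, too low for the filter, was detected in all scramble libraries and nearly absent from shMCT-1. Zeb1 was close to the limit of detection, and Snai2 and Cdh2 had no count in any library. Anti-IL-6R changed none of the 6 genes that passed the filter at the threshold, in either background. Zeb1 and Twist2, tested without a filter on low counts, were not called upon it either, and for Snai2 and Cdh2 no change could be seen.

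**Figure D1:**
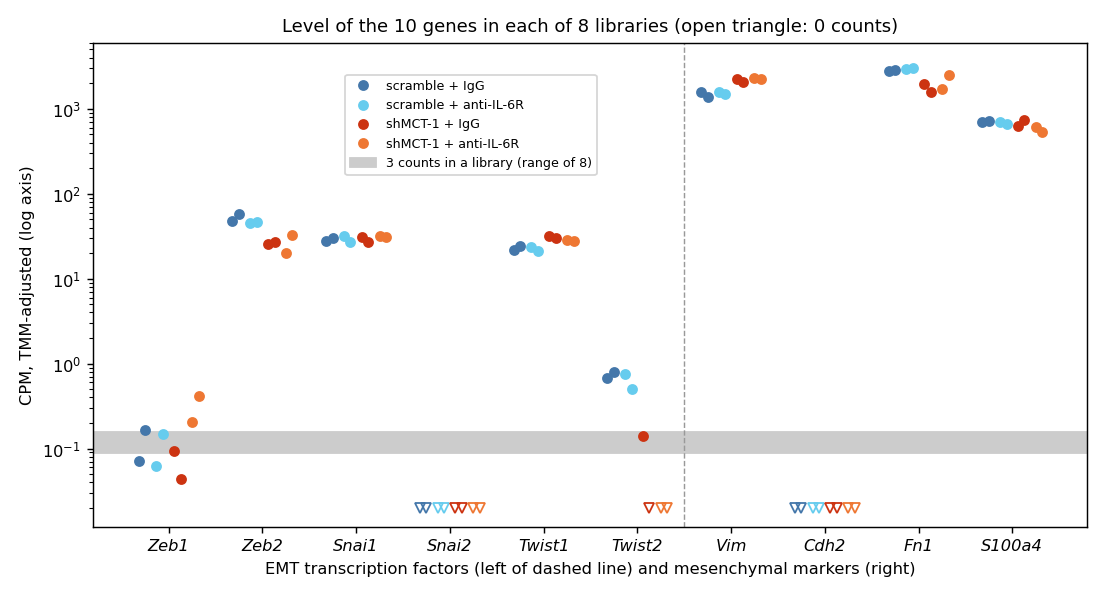
Level of each of the 10 genes in each of the 8 libraries, in TMM-adjusted CPM on a log axis. Points are single libraries coloured by group, open triangles at the bottom mark 0 counts (not a position on the axis), and the gray band is the CPM that 3 counts are worth in a library, 0.0888 to 0.155. The 4 scramble and 4 shMCT-1 libraries do not overlap for Zeb2, Twist1, Twist2, Vim and Fn1.

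The promoters below are shown because E-boxes of the ZEB and SNAI kind mark both targets of these factors and some of their own genes, and because a second transcript overlaps the start of Twist2. Each is the 250 bases before the start site from RefSeq (GRCm38.p6), printed on the strand of the gene, with CACCTG or its reverse complement CAGGTG in capitals.

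Epcam, chr17:87635729-87635978 (+): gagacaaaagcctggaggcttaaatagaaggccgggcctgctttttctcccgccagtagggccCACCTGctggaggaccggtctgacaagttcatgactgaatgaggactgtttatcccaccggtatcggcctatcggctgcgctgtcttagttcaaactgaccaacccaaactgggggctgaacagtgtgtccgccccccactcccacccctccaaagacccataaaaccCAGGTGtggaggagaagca

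Snai1, chr2:167537945-167538194 (+): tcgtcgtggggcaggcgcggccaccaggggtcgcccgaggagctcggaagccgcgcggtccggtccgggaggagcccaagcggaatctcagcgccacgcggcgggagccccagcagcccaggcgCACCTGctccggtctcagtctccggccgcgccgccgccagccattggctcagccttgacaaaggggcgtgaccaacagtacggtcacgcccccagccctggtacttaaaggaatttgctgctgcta

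Twist2, chr1:91801211-91801460 (+): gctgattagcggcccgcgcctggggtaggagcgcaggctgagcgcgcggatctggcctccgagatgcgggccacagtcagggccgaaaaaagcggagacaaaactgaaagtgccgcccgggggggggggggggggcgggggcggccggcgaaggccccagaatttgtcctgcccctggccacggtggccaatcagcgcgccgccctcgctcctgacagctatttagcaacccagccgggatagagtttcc

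The Epcam window holds 2 such E-boxes, at -187 and -19 from the start, and the Snai1 window holds 1, at -126. Of 32851 mouse promoters of the same length, 17.2% hold at least 1 and 2.06% at least 2. The windows of Zeb2, Twist1, Twist2, Vim and S100a4 hold none, and none of the 6 member windows or that of Epcam holds TTCNNNGAA, the spacing bound by STAT factors, which reads alike on both strands and is present in 7.02% of all windows. Each gene was read in a single window, the listed one nearest its annotated start, of 4 listed for Zeb2. For Vim the RefSeq start used lay 384 bases from the annotated start of the gene. RefSeq windows were not matched for Zeb1, Snai2, Cdh2, Fn1 and Cdh1. These matches describe letters only.

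Zeb2 (ENSMUSG00000026872, chr2:44983632-45117395, minus strand, GRCm38) was the ZEB factor whose RNA passed the filter. Its level was 48.0 and 57.4 CPM in scramble + IgG, 45.5 and 47.1 CPM in scramble + anti-IL-6R, 25.5 and 26.9 CPM in shMCT-1 + IgG, and 19.9 and 33.1 CPM in shMCT-1 + anti-IL-6R. All 4 shMCT-1 libraries lay below all 4 scramble libraries, and the shMCT-1 + anti-IL-6R replicates were the furthest apart. Zeb2 was 2.01-fold lower in shMCT-1 with IgG (log2 fold change -1.01 ± 0.19, SE, adjusted p = 0.00165), 1.74-fold lower with anti-IL-6R (-0.80 ± 0.19, adjusted p = 0.0055), and 1.87-fold lower across both treatments (-0.90 ± 0.13, adjusted p = 0.000108). With anti-IL-6R its difference was -0.47 without shMCT-1 + anti-IL-6R replicate 1 (adjusted p = 0.0153) and -1.21 without replicate 2 of that group (adjusted p = 0.000176). Zeb2os, the antisense transcript at this locus, stood at 0.696 CPM in scramble and 0.853 CPM in shMCT-1 and did not pass the filter.

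Zeb1 (ENSMUSG00000024238, chromosome 18), the other ZEB factor, had 2, 4, 2 and 5 counts in the scramble libraries and 2, 1, 4 and 9 in the shMCT-1 libraries, 29 in all. The groups overlapped, with a mean of 0.112 CPM in scramble and 0.190 CPM in shMCT-1 (two-sided exact permutation test, 4 against 4 libraries, p = 0.457). With IgG and anti-IL-6R its means were 0.118 and 0.106 CPM in scramble and 0.0682 and 0.311 CPM in shMCT-1. In edgeR's quasi-likelihood test without a filter on low counts the latter difference had an unadjusted p of 0.0667 and was not called. No difference in Zeb1 was detectable at this depth.

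Snai1 (ENSMUSG00000042821, chr2:167538195-167542814, plus strand) was the SNAI member whose RNA passed the filter. Its level was 27.8 and 29.7 CPM in scramble + IgG, 31.6 and 27.2 CPM in scramble + anti-IL-6R, 30.9 and 26.8 CPM in shMCT-1 + IgG, and 31.6 and 31.3 CPM in shMCT-1 + anti-IL-6R. The ranges of both backgrounds overlapped. The difference between them was 0.05 ± 0.07 on the log2 scale across both treatments (adjusted p = 0.538), with a 95% interval of -0.11 to 0.21. Snai2 (ENSMUSG00000022676, chromosome 16), or Slug, had 0 counts in each library, and 3 counts, the limit that a count of 0 allows, correspond to 0.0888 CPM in the largest library and 0.155 CPM in the smallest. These limits cover counting error only.

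Twist1 (ENSMUSG00000035799, chr12:33957671-33959829, plus strand) was the TWIST factor that passed the filter. Its level was 21.8 and 24.3 CPM in scramble + IgG and 23.4 and 21.3 CPM in scramble + anti-IL-6R, against 31.9 and 30.2 CPM in shMCT-1 + IgG and 28.7 and 27.7 CPM in shMCT-1 + anti-IL-6R. The 4 shMCT-1 libraries were all above the 4 scramble libraries. Twist1 was 1.34-fold higher in shMCT-1 with IgG (log2 fold change 0.43 ± 0.10, adjusted p = 0.00508) and 1.26-fold higher with anti-IL-6R (0.33 ± 0.10, adjusted p = 0.0172), or 1.30-fold across both (0.38 ± 0.07, adjusted p = 0.000429). With anti-IL-6R the call was lost without scramble + anti-IL-6R replicate 2 (0.26, adjusted p = 0.169) and without shMCT-1 + anti-IL-6R replicate 1 (0.32, adjusted p = 0.0533). The correction for length and GC content ended all 3 calls of Twist1 (differences of 0.05, 0.02 and 0.04, adjusted p = 0.711, 0.862 and 0.658).

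Twist2 (ENSMUSG00000007805, chr1:91801461-91848028, plus strand), the paralog of Twist1, moved the other way. RSEM assigned it 18.8 and 18.8 counts in scramble + IgG and 23.8 and 16.97 counts in scramble + anti-IL-6R, or 0.503 to 0.788 CPM. In shMCT-1 + IgG it had 3 counts in replicate 1 and 0 in replicate 2, and in shMCT-1 + anti-IL-6R it had 0 in both. Against a floor of 3 counts per library, its mean level was at least 4.83-fold lower in shMCT-1 across both treatments (two-sided exact permutation test, 4 against 4 libraries, p = 0.0286, the smallest p this design allows). In edgeR's quasi-likelihood test without a filter on low counts Twist2 was called lower within IgG (adjusted p = 0.000238), within anti-IL-6R (adjusted p = 2.39e-06) and across both treatments (adjusted p = 1.21e-09). Gm29100, annotated as antisense, covers chr1:91798528-91802937 on the minus strand and thus the Twist2 promoter printed above and the start of the gene. Gm29100 had 1.24, 1.20, 1.98 and 1.95 CPM in the 4 scramble libraries and 0 in all 4 shMCT-1 libraries, a mean at least 11.3-fold lower against the same floor. The strandedness of the counting is not given in the sources used here, the scramble counts of Twist2 are not whole numbers, and reads of Twist2 and Gm29100 cannot be told apart if strand was not used.

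The members that passed the filter number 6, and in shMCT-1 vs. scramble 2 of them were higher and 2 lower in each comparison. Within IgG, 28.3% of all tested genes were called higher and 26.2% lower. Within anti-IL-6R these shares were 26.9% and 27.3%, and across both treatments 35% and 34%. Between 4 libraries and 4, 64.4% of all tested genes did not overlap, and among the 6 tested members neither did Zeb2, Twist1, Vim and Fn1. Twist2 did not overlap either, but it is not among the tested genes that this share covers. The members' counts are near these shares, and nothing particular to them is read from the counts.

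**Figure D2:**
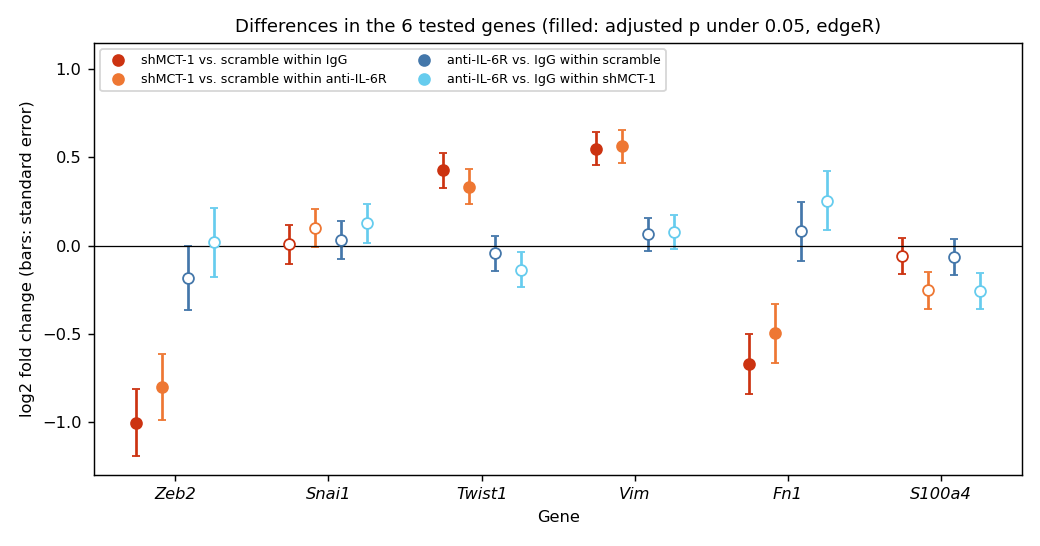
log2 fold changes of the 6 tested genes in 4 comparisons, with the standard error as bars. Filled points have an adjusted p under 0.05 in edgeR's quasi-likelihood test. Zeb2 and Fn1 lie below 0 and Twist1 and Vim above it in both comparisons of shMCT-1 with scramble, and no point of the anti-IL-6R comparisons is filled.

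Vim (ENSMUSG00000026728, chr2:13573927-13582826, plus strand) rose in shMCT-1. Its level was 1573 and 1370 CPM in scramble + IgG and 1571 and 1506 CPM in scramble + anti-IL-6R, against 2233 and 2074.5 CPM in shMCT-1 + IgG and 2298 and 2244 CPM in shMCT-1 + anti-IL-6R. The lowest shMCT-1 library was well above the highest scramble library. Vim was 1.46-fold higher with IgG (log2 fold change 0.55 ± 0.09, adjusted p = 0.000977) and 1.48-fold higher with anti-IL-6R (0.56 ± 0.09, adjusted p = 0.00087). Over the alternative fits, those with a library left out included, Vim was the member whose difference varied least, between 0.52 and 0.59 across both treatments. Minus the median of its chromosome, which is a subtraction and not a fit, the difference was 0.92.

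Fn1 (ENSMUSG00000026193, chr1:71585520-71653200, minus strand) fell in shMCT-1. Its level was 2761 and 2899 CPM in scramble + IgG and 2954 and 3031 CPM in scramble + anti-IL-6R, against 1984 and 1572 CPM in shMCT-1 + IgG and 1711 and 2529 CPM in shMCT-1 + anti-IL-6R. No shMCT-1 library reached the scramble range, but shMCT-1 + anti-IL-6R replicate 2 came near it. Fn1 was 1.59-fold lower with IgG (log2 fold change -0.67 ± 0.17, adjusted p = 0.00756), 1.41-fold lower with anti-IL-6R (-0.50 ± 0.17, adjusted p = 0.0301) and 1.499-fold lower across both (-0.58 ± 0.12, adjusted p = 0.00102). With IgG the call was lost without shMCT-1 + IgG replicate 2 (-0.51, adjusted p = 0.0734). With anti-IL-6R it was lost without scramble + anti-IL-6R replicate 1 (-0.52, adjusted p = 0.0817) or replicate 2 (-0.48, adjusted p = 0.109) and without shMCT-1 + anti-IL-6R replicate 1 (-0.23, adjusted p = 0.246).

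S100a4 (ENSMUSG00000001020, chr3:90603771-90606045, plus strand) was not called. Its level was 702 and 720.0 CPM in scramble + IgG, 693 and 669 CPM in scramble + anti-IL-6R, 623 and 742 CPM in shMCT-1 + IgG, and 602 and 539 CPM in shMCT-1 + anti-IL-6R. Both backgrounds overlapped, through the higher of the shMCT-1 + IgG libraries. The difference was -0.06 ± 0.10 on the log2 scale with IgG (adjusted p = 0.651) and -0.25 ± 0.10 with anti-IL-6R (adjusted p = 0.0582), and -0.16 ± 0.07 across both treatments (adjusted p = 0.0808). The last became a call without shMCT-1 + IgG replicate 2 (-0.23, adjusted p = 0.0105) and with DESeq2 (-0.17, adjusted p = 0.0388). That with anti-IL-6R became a call with DESeq2 (adjusted p = 0.0309) and without any single library of the 4 IgG libraries (adjusted p = 0.0471 to 0.0498). The S100 genes beside it on chromosome 3 were S100a3, at 4.58 CPM in scramble and 5.55 CPM in shMCT-1 (log2 fold change 0.28 ± 0.14, adjusted p = 0.102), and S100a6, which was higher in shMCT-1 (0.51 ± 0.11, adjusted p = 0.00217). Cdh2 (ENSMUSG00000024304, chromosome 18) had 0 counts in all 8 libraries, while Cdh1, the epithelial cadherin, stood at 283 to 315 CPM in scramble and 251 to 309 CPM in shMCT-1 (-0.06 ± 0.07 across both treatments, adjusted p = 0.458).

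Per kilobase of the main transcript, the mean scramble levels ran from S100a4 (1397 CPM per kb) over Vim (686), Fn1 (350.1), Snai1 (17.9), Twist1 (13.97), Zeb2 (5.42) and Twist2 (0.269) to Zeb1 (0.0193). In shMCT-1 the values in CPM per kb were 1258 for S100a4, 1009 for Vim, 234 for Fn1, 18.6 for Snai1, 18.2 for Twist1, 2.89 for Zeb2, 0.0138 for Twist2 and 0.0327 for Zeb1. S100a4, Vim and Fn1 were expressed well above the factors, while Cdh2, the remaining marker, had no counts, like Snai2. In shMCT-1 the libraries of Snai1 and Twist1 overlapped on this scale, and in scramble those of Snai1 were all above those of Twist1. The level of Twist2 in shMCT-1 lies under the floor, so its place beside Zeb1 cannot be read.

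Zeb2 and Fn1 are the members with the longest transcripts, at 9124 and 8315 bases, and fold changes in these libraries fell with transcript length. Across both treatments the median log2 fold change was 0.37 in 1004 genes with a longest transcript under 1000 bases and -0.60 in 640 genes of 8000 bases or more, of which 74.8% were called lower and 10.8% higher. S100a4 (498 bases), Snai1 (1621 bases), Twist1 (1628 bases) and Vim (2926 bases) fall in bins whose medians were 0.37, 0.25, 0.25 and 0.11. Vim thus lay above the quartile range of genes of its length, S100a4 below it, and Fn1, Zeb2, Twist1 and Snai1 within it.

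**Figure D3:**
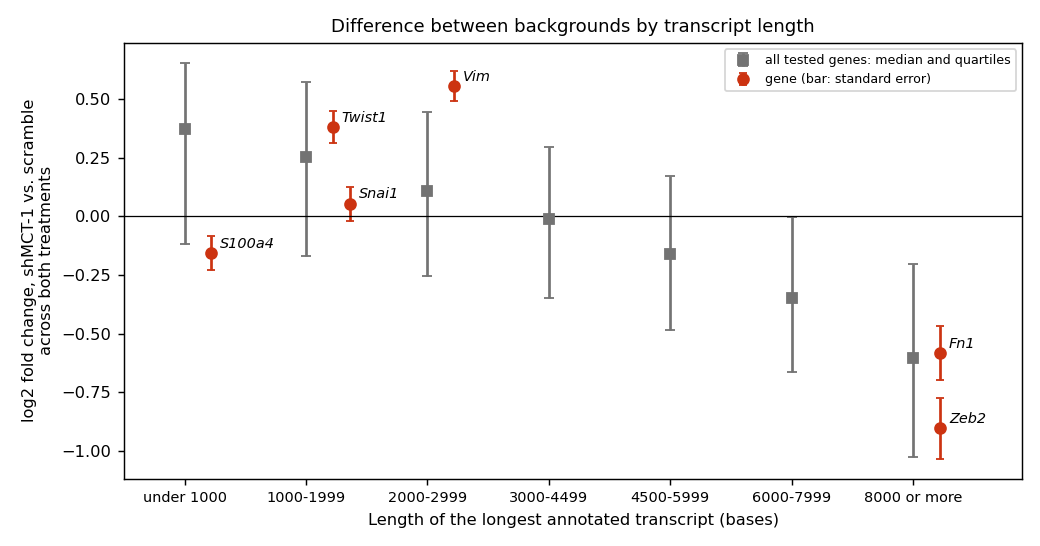
log2 fold change of shMCT-1 vs. scramble across both treatments by the length of the longest annotated transcript. Squares and bars are the median and quartiles of all tested genes in each bin, and red points with standard errors are the 6 tested genes. The medians fall from 0.37 to -0.60, and Zeb2 and Fn1 sit in the longest bin.

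After a correction of each library for transcript length and GC content, chosen after the data were seen, Zeb2 differed by -0.36 ± 0.10 with IgG (adjusted p = 0.0159), -0.15 ± 0.10 with anti-IL-6R (adjusted p = 0.248) and -0.25 ± 0.08 across both treatments (adjusted p = 0.0124). Fn1 differed by -0.43 ± 0.12 with IgG (adjusted p = 0.013), -0.20 ± 0.12 with anti-IL-6R (adjusted p = 0.172) and -0.31 ± 0.09 across both (adjusted p = 0.00831). The Twist1 differences under it are given above. Vim was 0.56 ± 0.06 higher across both (adjusted p = 1.53e-05). Snai1 and S100a4 became lower in shMCT-1 across both treatments, by -0.28 ± 0.08 (adjusted p = 0.0091) and -0.33 ± 0.08 (adjusted p = 0.00308). Vim was therefore the only one of the 6 whose call and size were alike before and after the correction in all 3 comparisons. Whether the length trend belongs to the cells or to the libraries was not tested.

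The trend also differed between replicates. Relative to their mean over the 8 libraries, the genes of 8000 bases or more had a median of 0.27 to 0.36 on the log2 scale in the scramble libraries, -0.27 and -0.28 in shMCT-1 + IgG, and -0.50 and -0.14 in shMCT-1 + anti-IL-6R replicates 1 and 2. Zeb2 stood at -0.85 and -0.11 in the last 2 of these libraries, and Fn1 at -0.46 and 0.10. In both genes the shMCT-1 + anti-IL-6R library with the higher long-transcript median was the one with the higher level. Vim stood at 0.33 and 0.30 there. The part of the length trend in the Zeb2 and Fn1 results was not tested.

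**Figure D4:**
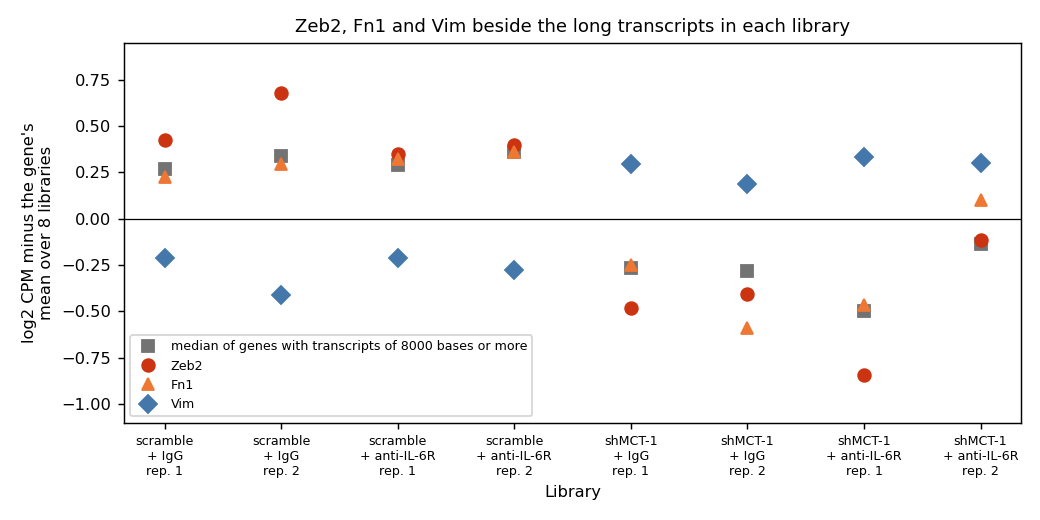
log2 CPM of Zeb2, Fn1 and Vim in each library relative to their mean over the 8 libraries, beside the median of 640 genes with transcripts of 8000 bases or more. Zeb2 and Fn1 lie on the side of the long transcripts in all 8 libraries but for Fn1 in shMCT-1 + anti-IL-6R replicate 2 (0.10 against -0.14), and Vim lies on the opposite side in all 8.

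Anti-IL-6R gave no called member. In scramble the differences of the 6 tested members lay between -0.18 (Zeb2) and 0.08 (Fn1) on the log2 scale, and in shMCT-1 between -0.26 (S100a4) and 0.25 (Fn1). These values moved with single libraries. In shMCT-1 the Fn1 difference was -0.05 without shMCT-1 + anti-IL-6R replicate 2, 0.52 without replicate 1 of that group, 0.43 without shMCT-1 + IgG replicate 1 and 0.10 without replicate 2 of that group. The Zeb2 difference there was -0.39 without shMCT-1 + anti-IL-6R replicate 2 and 0.35 without replicate 1. Among all tested genes, 0% were called in each background, in the interaction and across both backgrounds by edgeR's quasi-likelihood test. An unadjusted p under 0.05 was reached by 166 genes in scramble (1.31%), 505 in shMCT-1 (3.98%), 315 in the interaction (2.48%) and 355 across both backgrounds (2.79%). DESeq2 called 11 genes in shMCT-1, 6 in the interaction and 1 across both backgrounds. edgeR's exact test called 10 genes in scramble and 14 in shMCT-1, and no member was among the calls of either tool. The study, which also used edgeR, reported more DEGs upon anti-IL-6R in both backgrounds, and the reason was not tested. S100a4 within shMCT-1 was the member with an unadjusted p under 0.05 (-0.26 ± 0.10, 1.20-fold lower, adjusted p = 1.0). Both shMCT-1 + anti-IL-6R libraries were below both shMCT-1 + IgG libraries for this gene, and the difference was -0.38 without shMCT-1 + IgG replicate 1, -0.13 without replicate 2 of that group, -0.33 without shMCT-1 + anti-IL-6R replicate 1, -0.17 without replicate 2 of that group and -0.14 after the correction for length and GC content.

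The intervals show what these comparisons could have missed. The 95% interval of the anti-IL-6R effect was -0.14 to 0.27 for Vim, -0.26 to 0.18 for Twist1, -0.21 to 0.27 for Snai1, -0.59 to 0.22 for Zeb2, -0.29 to 0.46 for Fn1 and -0.29 to 0.17 for S100a4 in scramble on the log2 scale. In shMCT-1 it was -0.13 to 0.29 for Vim, -0.36 to 0.09 for Twist1, -0.12 to 0.37 for Snai1, -0.42 to 0.45 for Zeb2, -0.12 to 0.63 for Fn1 and -0.49 to -0.03 for S100a4, the last not adjusted for the number of genes tested. The interaction, the difference between the shMCT-1 effects with anti-IL-6R and with IgG, lay between -0.20 ± 0.14 (S100a4) and 0.20 ± 0.27 (Zeb2), with an adjusted p of 1.0 for each member. The Zeb2 interval of -0.39 to 0.80 is wide, and its interaction was -0.20 without shMCT-1 + anti-IL-6R replicate 2 and 0.54 without replicate 1 of that group.

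**Figure D5:**
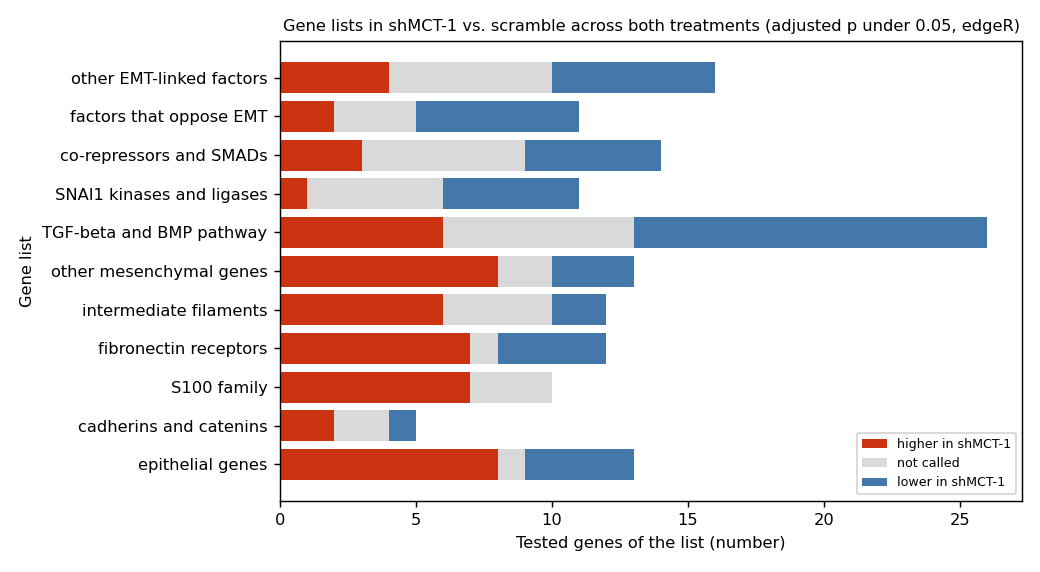
Number of tested genes in 11 lists around the EMT program that were called higher, called lower or not called in shMCT-1 vs. scramble across both treatments (edgeR, adjusted p under 0.05). The S100 family has 7 genes called higher and none lower, and the TGF-beta and BMP pathway has 6 higher and 13 lower.

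Other genes of the program were read from lists, against the 35% of all tested genes called higher and 34% called lower across both treatments, with a median of 0.01 over all genes. Of 16 tested factors linked to EMT other than the members, 4 were higher and 6 lower (median -0.15). Snai3, a further SNAI gene, rose from 1.65 ± 0.295 to 3.92 ± 0.226 CPM (SD, n = 4, log2 fold change 1.24), and Id3, an inhibitor of basic helix-loop-helix factors, from 46.4 ± 9.46 to 68.7 ± 2.44 CPM (0.57). Runx2, a runt-domain factor of bone, fell from 75.2 ± 3.84 to 38.2 ± 5.88 CPM (-0.98), and Id1, a further inhibitor of this class, from 57.8 ± 4.53 to 35.3 ± 3.53 CPM (-0.71). Of 11 tested factors that oppose EMT, 2 were higher, the epithelial factors Elf3 (1.33) and Grhl2 (0.39), and 6 were lower, among them Klf4 (-1.303) and Trps1 (-1.07), a GATA-type repressor, with a median of -0.27.

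Partners of these factors went both ways. Of 14 tested co-repressors and SMAD proteins, 3 were higher, among them the histone methyltransferase Ezh2 (0.43) and the deacetylase Hdac1 (0.36), and 5 lower, among them Smad3 (-1.16) and the CoREST subunit Rcor1 (-0.62), with a median of -0.09. Of 11 kinases, ligases and other enzymes that act on SNAI1 protein, 1 was higher, the kinase Csnk1e (0.15), and 5 lower, among them the ligase subunit Fbxl5 (-0.71) and the kinase Gsk3b (-0.49), with a median of -0.13. In the TGF-beta and BMP pathway, the best known inducer of EMT, 6 of 26 tested genes were higher and 13 lower (median -0.20). The ligand Tgfb2 rose from 1.52 ± 0.0726 to 5.20 ± 1.54 CPM (SD, n = 4, log2 fold change 1.77) and the activin-binding Fstl3 from 30.3 ± 2.21 to 56.2 ± 6.46 CPM (0.89), while the co-receptor Tgfbr3 fell from 4.03 ± 0.464 to 0.937 ± 0.250 CPM (-2.09) and the activin subunit Inhba from 153 ± 16.1 to 67.8 ± 9.29 CPM (-1.18).

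Genes of the classes of the 4 markers were called in both directions in all lists but the S100 family. Of 13 other tested mesenchymal genes, 8 were higher, among them the gelatinase Mmp9 (log2 fold change 1.97) and the matrix protein Postn (1.00), and 3 lower, among them the collagen chain Col5a1 (-1.15) and the actin-binding Cald1 (-0.34), with a median of 0.37. Of 12 tested intermediate filament genes and their linkers, Vim included, 6 were higher, among them Krt7 (0.86) and Krt14 (0.64), and 2 lower, Krt19 (-5.00) and the linker Plec (-0.26), with a median of 0.18. Of 12 tested fibronectin receptor and assembly genes, 7 were higher, among them the integrins Itgb6 (3.20-fold) and Itgb3 (2.27-fold), and 4 lower, among them Itgav (-0.96) and the integrin activator Tln1 (-0.81), with a median of 0.25. In the S100 family, S100a4 included, 7 of 10 tested genes were higher and none lower (median 0.57), among them S100a14 (0.95) and S100a7a (0.89). The 5 tested cadherins and catenins held 2 higher genes, Jup (0.38) and Ctnnb1 (0.15), and 1 lower, Ctnnd1 (-0.72), with a median of -0.04. The single higher SNAI1 enzyme was lost without scramble + anti-IL-6R replicate 2 or shMCT-1 + IgG replicate 1 (0 genes) and joined by another without scramble + IgG replicate 2 or shMCT-1 + IgG replicate 2 (2 genes). The higher cadherins and catenins fell to 1 without either scramble + anti-IL-6R library, shMCT-1 + IgG replicate 1 or shMCT-1 + anti-IL-6R replicate 2, and 1 S100 gene was lower without shMCT-1 + IgG replicate 2.

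Among 13 tested epithelial genes, 8 were higher and 4 lower in shMCT-1, with a median of 0.35. The tight junction gene Cldn4 rose from 5.46 ± 0.562 to 76.9 ± 3.10 CPM (SD, n = 4, 14.1-fold, adjusted p = 3.53e-10) and Epcam, the surface antigen whose promoter is printed above, from 4.30 ± 0.532 to 52.2 ± 2.19 CPM (12.1-fold, adjusted p = 6.33e-10). Krt19, a keratin of simple epithelia, fell from 18.2 ± 1.41 to 0.562 ± 0.174 CPM (32.1-fold, adjusted p = 3.3e-09) and the desmosomal Dsp, at 354 to 407 CPM in the scramble libraries, stood at 136 to 181 CPM in shMCT-1 (2.49-fold lower, adjusted p = 5.95e-07). A list of 68 genes joined from the EMT core genes of the study, which holds Vim and Fn1, had 45 genes higher and 11 lower (median 0.51). The study chose it on these libraries, so it is not independent evidence of a direction. Under the correction for length and GC content, 1 other mesenchymal gene was lower in place of 3, 2 genes of the S100 family were lower in place of 0, and no SNAI1 enzyme was higher in place of 1, while no other count of the 11 lists moved by over 1.5 times.

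Genes whose log2 CPM ran most like that of a member over the 8 libraries were Zfp638 and Zfp148 for Zeb2 (Pearson's r 0.998 and 0.998), Zfp703 and Got2 for Snai1 (0.896 and 0.895), Hcfc1r1 and 2310061I04Rik for Twist1 (0.990 and 0.989), Ctsb and Dad1 for Vim (0.999 and 0.999), Atp2a2 and Mtmr10 for Fn1 (0.989 and 0.989) and Pclaf and Zfp868 for S100a4 (0.966 and 0.951). The points are the same 8 libraries in 4 groups, so the difference between backgrounds makes much of each r. The values for Snai1, which has no such difference, are the lowest.

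Fold changes also differed by chromosome. On chromosome 2, which holds Zeb2, Snai1 and Vim, the median of 1001 tested genes was -0.37 across both treatments, and on chromosome 12, which holds Twist1, that of 482 genes was -0.35. On chromosome 1 (Fn1) the median of 746 genes was 0.21, and on chromosome 3 (S100a4) that of 637 genes was 0.11. Minus the median of their chromosome, the differences were -0.53 for Zeb2, 0.42 for Snai1, 0.92 for Vim, 0.73 for Twist1, -0.79 for Fn1 and -0.27 for S100a4. Among the tested genes of their own chromosome, ordered from the lowest difference, Zeb2 stood at the percentile 17.5, Fn1 at 13.4, Twist1 at 89.4 and Vim at 92.6. The part of the chromosome medians in the members' differences was not tested. The nearest tested genes named in this paragraph lay from 5889 bases (Atic, beside Fn1) to 3696714 bases (Acvr2a, beside Zeb2) from their member. Snx13 lay 1087357 bases from Twist1. The nearest tested genes on either side of Zeb2 were both lower in shMCT-1, Gtdc1 (-0.34 ± 0.09, adjusted p = 0.00579) and Acvr2a (-1.11 ± 0.11, adjusted p = 6.05e-06). Those of Twist2 were also both lower, Asb1 (-0.70 ± 0.09, adjusted p = 4.68e-05) and Hdac4 (-0.56 ± 0.08, adjusted p = 0.000137), as were those of Twist1, Twistnb (-0.35 ± 0.07, adjusted p = 0.00109) and Snx13 (-0.81 ± 0.08, adjusted p = 4.87e-06). Those of Fn1 were both higher, Atic (0.21 ± 0.05, adjusted p = 0.00479) and Mreg (0.46 ± 0.08, adjusted p = 0.000586). Beside Vim, Trdmt1 was not called (-0.16 ± 0.10, adjusted p = 0.167) and Hacd1 was lower (-0.43 ± 0.08, adjusted p = 0.000906), and beside Snai1 neither Rnf114 (-0.10 ± 0.07, adjusted p = 0.208) nor Ube2v1 (0.08 ± 0.06, adjusted p = 0.279) was called.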

How the data were processed

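Poly(A)-selected RNA of 8 libraries was sequenced in paired-end mode. Per the submitters' processing notes and the study's methods, the authors used cutadapt 1.18 for trimming and STAR 2.7.0d for alignment to mm10 with the GENCODE M19 annotation, and deposited expected counts, the read numbers that RSEM estimated per gene, without normalization. Of the values above 0, 29.6% were not whole, and all were rounded here. Whether molecular identifiers or strand were used in counting is not given in the sources used here. Coordinates and lengths come from GENCODE M21 (GRCm38), in which 54495 of 54532 identifiers were found without their version.

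Genes that exceeded 1 CPM in 2 or more libraries were kept. Library sizes were adjusted by TMM, and 4 group means, or background and treatment as additive terms for comparisons across both, were fitted to all 8 libraries with edgeR 4.0.16 (quasi-likelihood) in R 4.3.3. Genes under the filter were tested by exact permutation over libraries or given as counts. edgeR's exact test, DESeq2 1.42.0, other normalizations, filters and designs, thinning to the smallest library and leaving out each library were alternatives. The length and GC correction used loess curves per library, with a span of 0.3, as offsets, and 99.9% of tested genes had a value. Scripts were tested on simulated data.

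The members, lists and tests were chosen with earlier results of these data known. Besides the members, the genes named are Mcts1 and epithelial checks, at most 2 called genes per list and direction with a mean of at least 1 CPM, the nearest tested neighbours and the 2 genes most like each tested member, and Gm29100 and Zeb2os for their overlap, which were chosen after their values were seen. 1 CPM stood for 19.8 to 33.1 counts.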

Additional observations from a re-analysis of the deposited data

How the results depend on the processing

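The calls of the 6 tested members in shMCT-1 vs. scramble kept their direction and side of the threshold under RLE size factors, no filter, filterByExpr and thinning, as did DESeq2, the exact test, the stricter filter and the 4-library fits but for S100a4, which became a lower call with anti-IL-6R (adjusted p = 0.0309, 0.0319, 0.0426 and 0.0325) and, with DESeq2, across both treatments. With no filter or filterByExpr 3 members were lower in each of these comparisons, as Twist2 was then tested and called. The replicate numbers did not pair the samples (correlations of replicate differences -0.0797 to 0.106), and with the replicate as a block 2 members were higher and 2 lower as before, with 7035, 7017 and 8790 genes called within IgG, within anti-IL-6R and across both treatments, and 0 upon anti-IL-6R. Under the correction for length and GC content, 1 member was higher in each of the 3 comparisons and 4, 1 and 4 were lower, with Snai1 turned to -0.36 with IgG and -0.28 across both treatments. Minus the median of their chromosome, as given above, the differences of the 6 tested members across both treatments moved but kept their sign. That of Vim went from 0.56 to 0.92.

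Leaving out each library, 1 to 2 members were lower within IgG, and 1 to 2 higher and 1 to 3 lower within anti-IL-6R, with 5155 to 7422 and 4390 (without scramble + anti-IL-6R replicate 2) to 7304 genes called. Upon anti-IL-6R, 0 to 14 genes (14 without scramble + IgG replicate 1) were called in scramble, 0 to 1 in shMCT-1, 0 to 8 in the interaction (8 without that same library) and 0 to 1 across both backgrounds. The lone library left in a group is then assumed to vary like the others. Upon anti-IL-6R, DESeq2 called 11, 6 and 1 genes in shMCT-1, the interaction and across both, the exact test 10 in scramble and 14 in shMCT-1, and the fit without a filter 64 in scramble, 133 in shMCT-1, 97 in the interaction and 73 across both. The exact test and the 4-library fits give no interaction and no value across both. The cause of these changes was not tested. With 2 libraries per group, small anti-IL-6R effects on Zeb2 and Fn1 could not be seen, and Zeb1, Snai2, Twist2 and Cdh2 are limited by depth.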
